A study of Rattus norvegicus with 21 samples.

Results

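Astrocytes joined by gap junctions form a coupled network, and the genes described here encode its channels and the water channel of the astrocyte endfoot. They are Gja1 (connexin Cx43), Gjb6 (Cx30), Gjb2 (Cx26) and Aqp4 (aquaporin-4), 4 of the 14217 genes measured. They were chosen by name, not by their values, and were read from every probe set whose single gene symbol was the gene. This gave 8 of 31042 probe sets: 3 for Gja1, 3 for Aqp4, 1 for Gjb6 and 1 for Gjb2. For a gene with several, the brightest probe set, by its average on the 21 arrays, was taken as its lead.

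The cells were forebrain astrocytes of Sprague Dawley rats, in 7 groups of 3 arrays. Withdrawn P7 cultures were panned from postnatal day 7 (P7) forebrain with an antibody to the integrin ITGB5, grown for 7 days in 10% foetal calf serum, washed and kept 7 more days with HBEGF, an epidermal growth factor family ligand. Serum P7 cultures were panned the same way and spent 7 days in 10% serum. HBEGF P7 cultures were panned P7 cells kept 7 days without serum and with HBEGF at 5 ng/ml, and fresh P7 cells were lysed straight after panning. MD cultures were prepared from postnatal day 1 (P1) forebrain by the method of McCarthy and de Vellis, without panning, and grown in 10% serum for 7 days. HBEGF P1 cultures and fresh P1 cells were the P1 counterparts of the panned P7 groups. One label of the HBEGF P7 cultures reads p1, but their title and source name read P7, which was used. No group carried a transgene or deletion, and the sex and number of the animals are not given in the labels used here.

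Connexins assemble into rings, the hemichannels, that dock between neighbouring cells to make a gap junction, through which ions, glucose and small signalling molecules pass. Cx43 is the main connexin of astrocytes from early development, Cx30 is known to appear in grey matter astrocytes as they mature, and Cx26 is found in some astrocytes and in leptomeningeal cells, which also make Cx30 and Cx43. Aquaporin-4 carries water across the astrocyte membrane and gathers at endfeet on blood vessels, where the dystrophin complex anchors it.

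Gjb2 and Gjb6 are neighbours in the rat genome. In the RefSeq annotation of build GRCr8, Gjb2 lies at chr15:35375977-35393817 and Gjb6 at chr15:35400147-35410649, both on the minus strand, 6.33 kb apart with 0 other annotated genes between them. Gja1 lies at chr20:36302490-36315010 and Aqp4 at chr18:6782389-6799034. The 250 bases before an annotated start of Gjb6 and Gjb2 are shown because the levels of these neighbours followed each other across the arrays. Those of Gja1 are shown because its group means spanned far less, though its levels were correlated with theirs. The Gjb6 window is chr15:35410139-35410388 (minus strand), the Gjb2 window chr15:35381954-35382203 (minus strand) and the Gja1 window chr20:36302314-36302563 (plus strand), each within the RefSeq promoter set and printed from 5′ to 3′ on the strand of the gene. Capitals mark AGAGGCGGGGTG, the longest stretch that the Gjb6 and Gjb2 windows share in the same sense, TTAAAAG on either strand, and the AP-1 motif TGANTCA.
Gjb6: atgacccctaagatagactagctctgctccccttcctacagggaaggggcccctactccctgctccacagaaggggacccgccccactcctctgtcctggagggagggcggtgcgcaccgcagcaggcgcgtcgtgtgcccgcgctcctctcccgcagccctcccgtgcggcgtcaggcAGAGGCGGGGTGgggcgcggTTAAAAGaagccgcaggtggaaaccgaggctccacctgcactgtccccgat
Gjb2: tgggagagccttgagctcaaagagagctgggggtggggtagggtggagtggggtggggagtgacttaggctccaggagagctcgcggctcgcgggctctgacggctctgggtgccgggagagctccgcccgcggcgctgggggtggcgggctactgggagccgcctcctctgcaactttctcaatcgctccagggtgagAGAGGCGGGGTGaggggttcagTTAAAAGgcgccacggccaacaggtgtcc
Gja1: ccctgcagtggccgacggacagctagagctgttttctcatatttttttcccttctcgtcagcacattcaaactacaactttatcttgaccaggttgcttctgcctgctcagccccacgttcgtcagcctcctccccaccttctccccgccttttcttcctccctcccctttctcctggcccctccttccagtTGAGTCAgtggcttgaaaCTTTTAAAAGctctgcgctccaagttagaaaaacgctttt
AGAGGCGGGGTG began 71 bases before the Gjb6 start and 51 bases before the Gjb2 start, and on either strand it occurred in 8 of 33469 rat windows of the same length (0.0239%). It was picked from the Gjb6 and Gjb2 windows, so their own matches count among the 8. TTAAAAG followed it in both, beginning 51 and 29 bases before the Gjb6 and the Gjb2 start. In Gja1 TTAAAAG matched on both strands in overlapping letters, beginning 40 and 37 bases before the start, and 4.63% of windows held it. TGANTCA was found in the Gja1 window, 58 bases before the start, and in 6.34% of windows. The GC box GGGCGG was found 2 times for Gjb6 and 1 time for Gjb2 over both strands, and in 30.5% of windows. These matches describe letters, and binding of any factor was not measured.

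The deposited values were RMA intensities on a linear scale, and all levels below are log2 intensities (mean ± SD, n = 3). Groups were compared with limma in 1 model of the 7 group means over all probe sets. A gene was called changed where the Benjamini-Hochberg adjusted p was under 0.05 and the log2 change was at least 1 in either direction. The number of arrays, 3 per group, limits the precision, and the errors cover the spread between these arrays. The labels call them biological replicates and do not say how many animals each came from. In bulk samples such as these, fewer cells of a type and less RNA per cell cannot be told apart.

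The labelled cell type was checked on 19 astrocyte markers. Gfap, the glial filament protein, lay between 12.03 and 14.76 on all arrays, and Slc1a3, which takes up glutamate, between 13.12 and 14.77. Other markers were not held in every group, and in MD cultures 12 of the 19 were called lower than in fresh P1 cells, Slc1a3 among them (log2 change −1.27). Aldh1l1, a folate enzyme of astrocytes, averaged 8.65 ± 0.21 in MD cultures and 12.50 ± 0.17 in fresh P1 cells. Grm3, a glutamate receptor, averaged 5.39 ± 0.57 in MD cultures and 12.71 ± 0.42 in fresh P1 cells, and Cldn10, a claudin, 5.85 ± 0.14 in MD cultures and 9.64 ± 0.54 in fresh P1 cells. Array medians lay close together, and no batch was named in the labels. The third serum P7 array stood apart from the other 2 of its group in Gjb6 and Gjb2, and changes between groups that rest on it are given with and without it. Correlations across arrays were computed only with this array included. The third serum P7 array was singled out by these same Gjb6 and Gjb2 values. The adjusted p and calls without it therefore describe the remaining arrays and are not a test. In the third arrays of the withdrawn and serum P7 cultures the Y-linked gene Eif2s3y was at 10.88 and 11.44, and Xist, the X-inactivation RNA, at 4.03 and 4.01. In the other arrays of both groups Eif2s3y lay between 3.79 and 4.27 and Xist between 10.56 and 11.04, values looked up after the Gjb6 values were seen. In HBEGF P7 cultures Eif2s3y was at 3.76, 11.21 and 11.09 and Xist at 11.82, 4.13 and 3.93, and there the second array was the lowest and the third the highest of the group in Gjb6, though alike in both genes.

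Gja1 was high in every group, and its lead probe set moved little. It measured 14.64, 14.71 and 14.73 in withdrawn P7 cultures, 14.40, 14.49 and 14.75 in serum P7 cultures, 14.58, 14.41 and 14.54 in HBEGF P7 cultures and 14.55, 14.56 and 14.54 in fresh P7 cells. It measured 13.97, 13.87 and 13.72 in MD cultures, 14.48, 14.37 and 14.54 in HBEGF P1 cultures and 14.14, 14.12 and 14.18 in fresh P1 cells. The MD arrays were below all others and the fresh P1 arrays came next. The withdrawn P7 arrays overlapped those of serum P7 cultures and lay above those of fresh P7 cells, HBEGF P7 cultures and HBEGF P1 cultures. The group means spanned 0.84, a span at the 43.9th percentile of all genes. The lead probe set lay at the 99.4th percentile of all probe sets or above on every array, near the top of the scale, and a dimmer Gja1 probe set spanned 1.56 between group means.

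Gja1 was lower in MD cultures than in HBEGF P1 cultures (log2 change −0.61 ± 0.10 SE, limma adjusted p = 0.000105) and lower than in fresh P1 cells (log2 change −0.30 ± 0.10 SE, adjusted p = 0.0246). It was higher in serum P7 cultures than in MD cultures (0.69 ± 0.10 SE, adjusted p = 6.23e-05), in fresh P7 than in fresh P1 cells (0.40 ± 0.10 SE, adjusted p = 0.0328) and in HBEGF P1 cultures than in fresh P1 cells (0.32 ± 0.10 SE, adjusted p = 0.0298). In these 5 comparisons the arrays of both groups did not overlap, and each change stayed under the limit of 1, so none was called. From the highest group mean to the lowest, the order was withdrawn P7, fresh P7, serum P7, HBEGF P7, HBEGF P1, fresh P1 and MD. Of the 6 neighbours in that order, HBEGF P1 with fresh P1 and fresh P1 with MD differed at an adjusted p under 0.05.

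Aqp4 was the only one of the 4 genes called in comparisons with the MD cultures over all arrays. It measured 14.21, 14.12 and 13.74 in withdrawn P7 cultures, 14.15, 14.20 and 13.99 in serum P7 cultures, 14.31, 13.02 and 14.19 in HBEGF P7 cultures and 14.43, 14.36 and 14.40 in fresh P7 cells. It measured 12.87, 12.72 and 12.38 in MD cultures, 14.21, 13.88 and 14.13 in HBEGF P1 cultures and 13.82, 13.59 and 13.86 in fresh P1 cells. All MD arrays lay below every array of every other group, and the nearest was the second HBEGF P7 array, which was low for its group.

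Aqp4 averaged 12.66 ± 0.25 in MD cultures, against 14.07 ± 0.17 in HBEGF P1 cultures and 13.75 ± 0.14 in fresh P1 cells. It fell 2.67-fold relative to HBEGF P1 cultures (log2 change −1.41 ± 0.24 SE, limma adjusted p = 0.000205) and 2.14-fold relative to fresh P1 cells (log2 change −1.10 ± 0.24 SE, adjusted p = 0.0017). Without the third MD array the fall relative to fresh P1 cells stayed under the limit (log2 change −0.96, adjusted p = 0.0121). Serum P7 cultures, also grown in 10% serum for 7 days, averaged 14.11 ± 0.11 and were 2.74-fold higher than MD cultures (log2 change 1.45 ± 0.24 SE, adjusted p = 0.000275). With the mean of the 3 Aqp4 probe sets the call held relative to HBEGF P1 cultures and was lost relative to fresh P1 cells (log2 change −1.18, adjusted p = 0.0523) and in serum P7 against MD cultures (1.08, adjusted p = 0.0945). These comparisons share the MD arrays. MD and HBEGF P1 cultures differ in serum, HBEGF and panning, and MD cultures and fresh P1 cells in culture, serum and panning. Serum P7 and MD cultures differ in age and panning. Within each comparison these cannot be told apart.

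The difference between the serum P7 and the HBEGF P7 cultures was set against that between the MD and the HBEGF P1 cultures in the same fit. For Aqp4 the serum P7 minus HBEGF P7 change was 0.27 ± 0.24 and the MD minus HBEGF P1 change −1.41 ± 0.24 (log2 change ± SE), and they differed by 1.69 ± 0.34 (limma adjusted p = 0.00355). With the mean of the 3 probe sets the difference was 1.51 and was not called (adjusted p = 0.147). For Gja1 these changes were 0.04 ± 0.10 and −0.61 ± 0.10, and they differed by 0.65 ± 0.14 (adjusted p = 0.00485), under the limit of 1. Aqp4 was thus 1 of the 4 genes called in this difference, where 11.3% of all genes were called. For Gjb6 the difference was 1.76 ± 1.81 (adjusted p = 0.619) and for Gjb2 −0.25 ± 1.54 (adjusted p = 0.949). Without the third serum P7 array the Gjb2 difference was −2.33 (adjusted p = 0.0186), which was then called.

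In the panned cells Aqp4 moved less than the limit. It was 0.64 ± 0.24 SE higher in fresh P7 than in fresh P1 cells with no overlap between arrays (log2 change, limma adjusted p = 0.17). HBEGF P7 cultures averaged 13.84 ± 0.71 and fresh P7 cells 14.40 ± 0.03 (log2 change −0.56, adjusted p = 0.114). Of the 6 neighbours in the order of Aqp4 means, fresh P7, serum P7, HBEGF P1, withdrawn P7, HBEGF P7, fresh P1 and MD, 1 pair, fresh P1 with MD, differed at an adjusted p under 0.05.

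**Figure D1:**
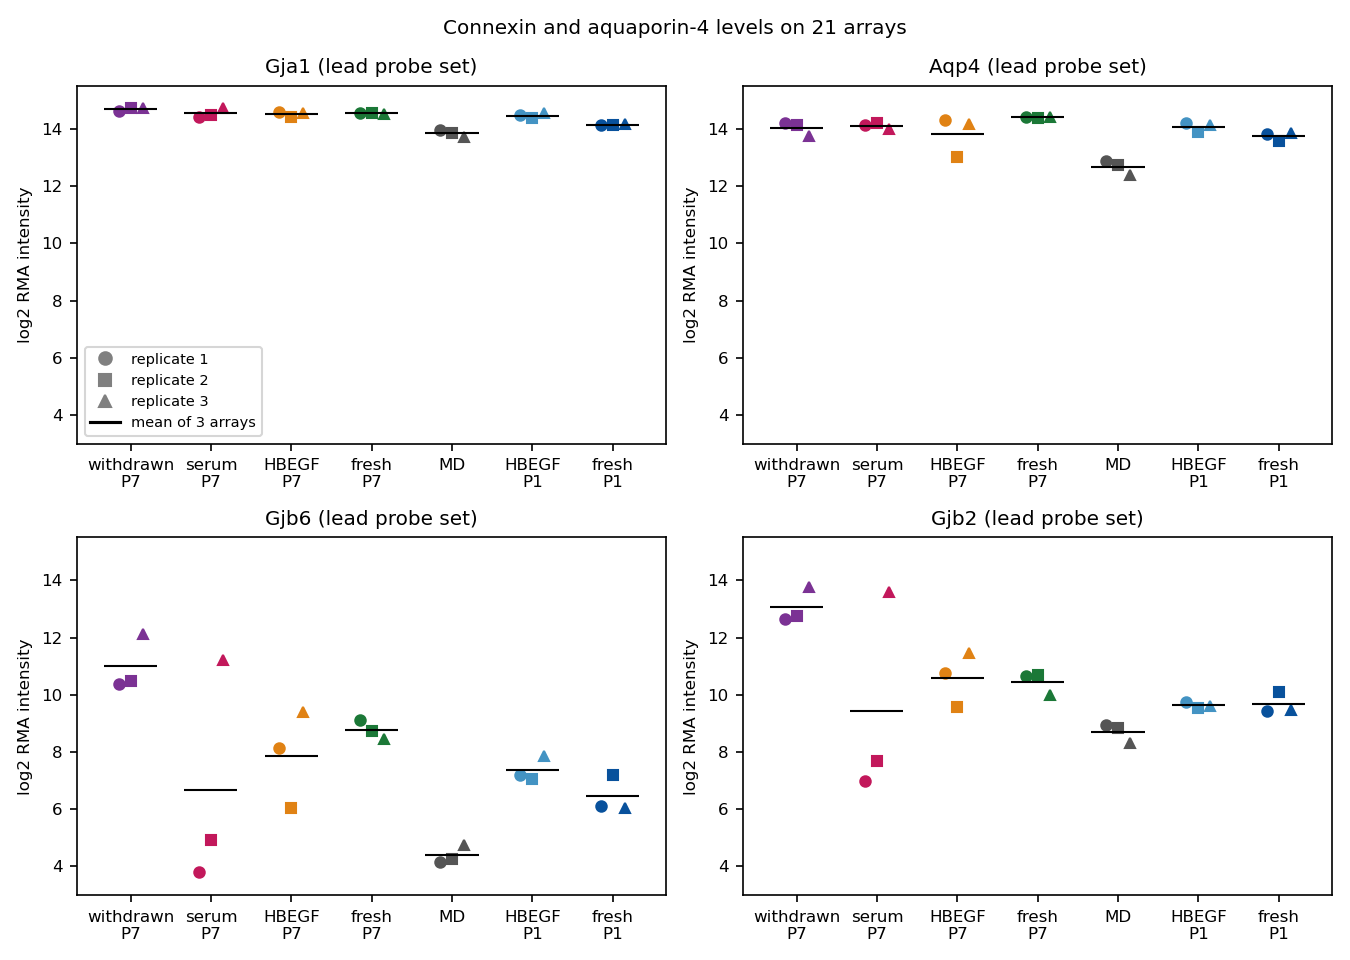
Log2 RMA intensity of the lead probe sets of Gja1, Aqp4, Gjb6 and Gjb2 (vertical axes) in 7 groups (horizontal axes, 3 arrays each); symbols give the replicate number and black lines the group mean. The MD arrays are lowest for Gja1 and Aqp4, and the third serum P7 array is at 11.23 for Gjb6 and 13.59 for Gjb2, far above the other 2 of its group.

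Gjb6 moved most. It measured 10.37, 10.50 and 12.14 in withdrawn P7 cultures, 3.80, 4.94 and 11.23 in serum P7 cultures, 8.15, 6.06 and 9.41 in HBEGF P7 cultures and 9.10, 8.74 and 8.47 in fresh P7 cells. It measured 4.17, 4.26 and 4.75 in MD cultures, 7.20, 7.05 and 7.86 in HBEGF P1 cultures and 6.10, 7.19 and 6.05 in fresh P1 cells. The withdrawn cultures were high on all arrays, the MD cultures low on all arrays, and the serum P7 cultures spanned nearly the whole scale, with 2 arrays at the level of the MD cultures or near it and 1 within the range of the withdrawn cultures. The group means spanned 6.61, more than in 99.8% of all genes.

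Gjb6 averaged 11.001 ± 0.986 in withdrawn P7 cultures and 6.658 ± 4.001 in serum P7 cultures. The change of 4.34 ± 1.28 SE on the log2 scale was called (limma adjusted p = 0.0481). Withdrawn P7 cultures differ from serum P7 cultures in serum removal, added HBEGF and 7 more days of culture, which cannot be told apart. The first and second serum arrays lay at the 0.438th and 18.6th percentile of all probe sets, near the floor of the scale, so no fold is given. The arrays overlapped, and the call was lost in 5 of the 6 fits without 1 array, with adjusted p between 0.0893 and 0.236. It was also lost with an offset of 32 added to the intensities (log2 change 3.45, adjusted p = 0.0645) and with the spread of these 6 arrays alone (adjusted p = 0.233). Without the third serum array the change was larger, and without the third arrays of both groups it was 6.06 (adjusted p = 0.000132). Taken by array number, withdrawn minus serum was 6.56, 5.56 and 0.91. The SD of the serum P7 cultures was the third largest of 14217 genes in that group, where the median gene had an SD of 0.15.

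Relative to the other groups no Gjb6 change was called over all arrays. In fresh P7 cells Gjb6 averaged 8.77 ± 0.32, against 6.45 ± 0.64 in fresh P1 cells, and the arrays did not overlap (log2 change 2.33, limma adjusted p = 0.371). With the spread taken from these 6 arrays alone the adjusted p was 0.0159. In MD cultures it averaged 4.39 ± 0.32, against 7.37 ± 0.43 in HBEGF P1 cultures (log2 change −2.98, adjusted p = 0.0795) and 6.45 ± 0.64 in fresh P1 cells (log2 change −2.06, adjusted p = 0.228). With the spread of the compared arrays alone the fall relative to fresh P1 cells had an adjusted p of 0.0025. Withdrawn P7 cultures were 3.13 above HBEGF P7 cultures (adjusted p = 0.0842) and 2.23 above fresh P7 cells (adjusted p = 0.171), with no overlap in either.

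Without the third serum P7 array, serum P7 cultures were lower in Gjb6 than fresh P7 cells (log2 change −4.40, limma adjusted p = 0.0002) and lower than HBEGF P7 cultures (log2 change −3.50, adjusted p = 0.00338), both called. With it the changes were −2.12 (adjusted p = 0.213) and −1.21 (adjusted p = 0.541). Since that array was picked by its Gjb6 and Gjb2 values, the calls without it are descriptive only. Of the 6 neighbours in the order of Gjb6 means, withdrawn P7, fresh P7, HBEGF P7, HBEGF P1, serum P7, fresh P1 and MD, 0 differed at an adjusted p or an unadjusted p under 0.05.

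Gjb2 largely followed the same arrays. It measured 12.64, 12.76 and 13.76 in withdrawn P7 cultures, 6.98, 7.70 and 13.59 in serum P7 cultures, 10.76, 9.57 and 11.47 in HBEGF P7 cultures and 10.67, 10.69 and 10.00 in fresh P7 cells. It measured 8.95, 8.85 and 8.30 in MD cultures, 9.73, 9.52 and 9.62 in HBEGF P1 cultures and 9.44, 10.10 and 9.47 in fresh P1 cells. The withdrawn arrays and the third serum array were above all others, and the first and second serum arrays below all others.

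Gjb2 averaged 13.06 ± 0.61 in withdrawn P7 cultures and 9.43 ± 3.63 in serum P7 cultures, and the change of 3.63 ± 1.09 SE on the log2 scale just missed the call (limma adjusted p = 0.0516). With the replicate number as a block it was called (adjusted p = 0.0431), and with that block in the 6 compared arrays alone it was not (adjusted p = 0.0969). Without the third serum array it was 5.71 (adjusted p = 1.76e-06), and by array number withdrawn minus serum was 5.66, 5.06 and 0.17. Withdrawn P7 cultures lay 2.60 above fresh P7 cells (adjusted p = 0.0623) and 2.46 above HBEGF P7 cultures (adjusted p = 0.109), with no overlap in either. Without the third serum array serum P7 cultures were lower than fresh P7 cells (log2 change −3.11, adjusted p = 5.49e-05) and lower than HBEGF P7 cultures (log2 change −3.26, adjusted p = 0.000132). With all arrays these changes were −1.03 (adjusted p = 0.494) and −1.17 (adjusted p = 0.48). As for Gjb6, values without the array picked by its own level are descriptive only. The group means spanned 4.36. Of the 6 neighbours in the order of Gjb2 means, withdrawn P7, HBEGF P7, fresh P7, fresh P1, HBEGF P1, serum P7 and MD, 1 pair, withdrawn with HBEGF P7, was under 0.05 before adjustment and 0 after it.

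**Figure D2:**
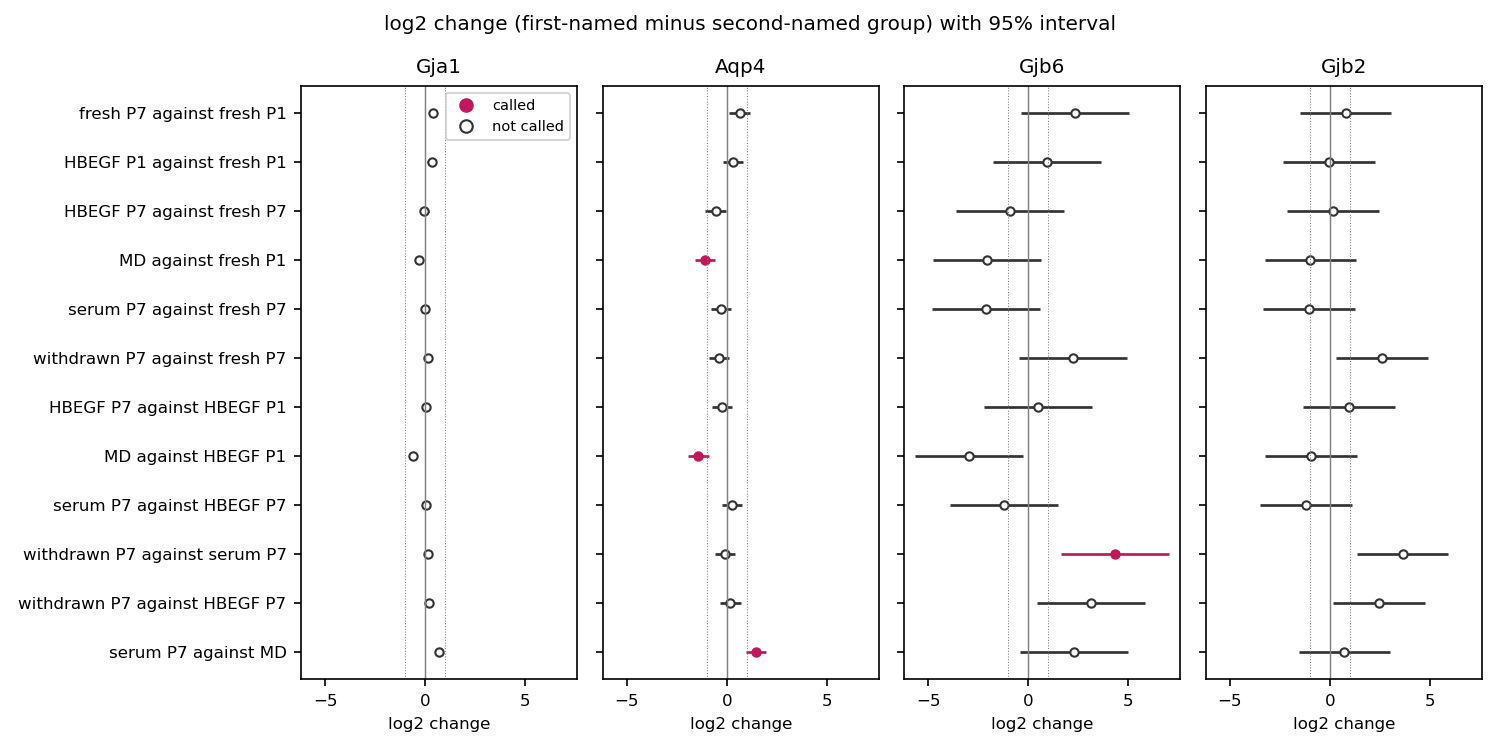
Log2 change of each gene (horizontal axes, first-named minus second-named group) with its 95% interval from limma in 12 comparisons (rows); filled points were called and dotted lines mark a change of 1. The intervals of Gjb6 and Gjb2 are wide, and the 4 filled points are Aqp4 in 3 comparisons with MD cultures and Gjb6 in withdrawn against serum P7 cultures.

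Set by comparison, the counts were small. Relative to fresh P7 cells, 0 of the 4 genes were called in withdrawn P7 cultures (22.1% of all genes were), in serum P7 cultures (18.2%) or in HBEGF P7 cultures (10.3%). At an unadjusted limma p under 0.05 there were 1, 0 and 1 of them, Gjb2 in withdrawn and Aqp4 in HBEGF P7 cultures. Relative to HBEGF P7 cultures, 0 were called in withdrawn P7 cultures (11.7% of all genes) and 0 in serum P7 cultures (9.30%), and 2 and 0 had an unadjusted p under 0.05. In withdrawn against serum P7 cultures 1 was called, Gjb6, where 4.50% of all genes were called.

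Relative to fresh P1 cells, 1 of the 4 genes was called in MD cultures, Aqp4 (19.6% of all genes), 0 in HBEGF P1 cultures (8.87%) and 0 in fresh P7 cells (1.55%). In HBEGF P1 cultures and in fresh P7 cells 1 and 2 of them had an unadjusted limma p under 0.05. In MD against HBEGF P1 cultures 1 was called, Aqp4 (18.4%), and in serum P7 against MD cultures 1, Aqp4 (13.9%). In HBEGF P7 against HBEGF P1 cultures 0 were called (1.11%) and 0 had an unadjusted p under 0.05. The change with HBEGF culture did not differ between P7 and P1 cells at the adjusted limit for any of the 4 (0 called, 0.816% of all genes), and 2, Gja1 and Aqp4, had an unadjusted p under 0.05. Shares of 0 to 1 in 4 are too coarse to be told from these backgrounds.

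Gjb6 and Gjb2 rose and fell on the same arrays. Over the 21 arrays their Pearson r was 0.95 and Spearman's rho 0.96, and the deviations of the arrays from their group means had an r of 0.97. Gja1 was correlated with both, with an r of 0.79 with Gjb6 and 0.65 with Gjb2 over the arrays. Over the deviations these were 0.72 and 0.78. For Gja1 and Aqp4 the r was 0.81 over the arrays and 0.39 over the deviations. Gjb6 and Aqp4 had an r of 0.53, and 0.07 over the deviations. The deviations of Gjb6 and Gjb2 were largest in serum P7 cultures, where the third array stood apart. Their SD there was 4.001 and 3.63, against at most 1.69 and 0.96 in the other groups. This group therefore weighs most in the r over deviations of Gjb6 and Gjb2 with each other and with Gja1. No r was computed without the third serum P7 array, so how far these values rest on it is not known. All r values here are descriptions across arrays of 7 groups, with no test.

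**Figure D3:**
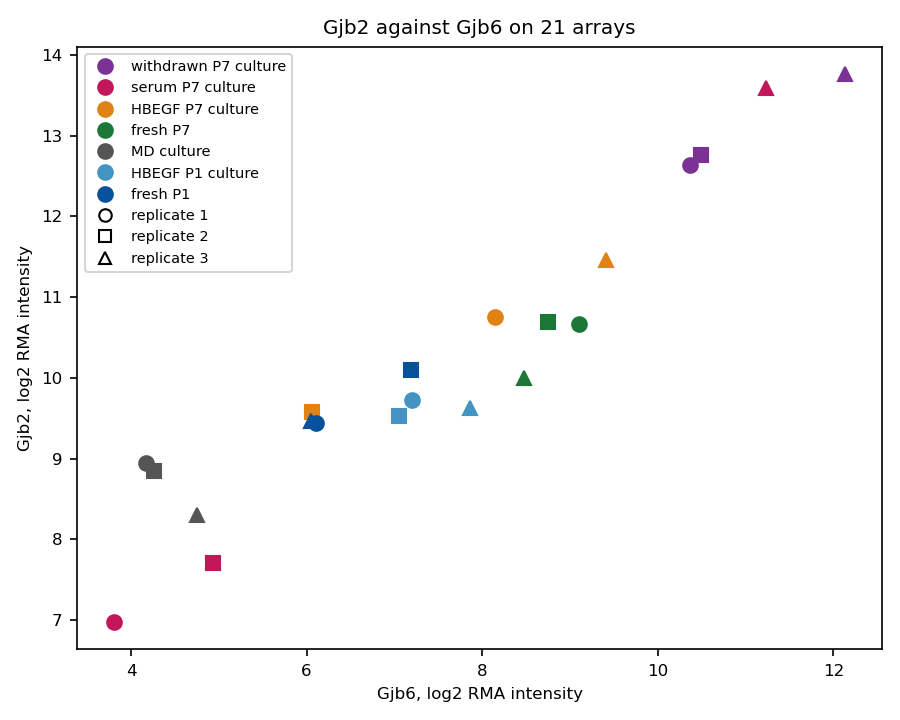
Gjb2 (vertical axis) against Gjb6 (horizontal axis), log2 RMA intensity, on 21 arrays; colour gives the group and symbol the replicate number. The 2 genes rise together, with the third serum P7 array beside the withdrawn P7 arrays. The first and second serum P7 arrays and the MD arrays are at the low end of Gjb6. The MD arrays lie above those serum arrays in Gjb2, at 8.30 to 8.95 against 6.98 and 7.70.

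Within each of the 4 P7 groups the arrays stood in the same order for Gjb6 as for the mean level of 20 fibroblast and meningeal markers. These included collagens, Dcn (decorin), Ptgds (prostaglandin D synthase, secreted by leptomeningeal cells) and Igf2 (a growth factor made by the meninges). Their mean level was 11.69, 11.88 and 12.21 in withdrawn P7 cultures, 10.42, 10.84 and 11.97 in serum P7 cultures, 10.43, 8.66 and 10.80 in HBEGF P7 cultures and 9.68, 9.31 and 8.73 in fresh P7 cells. The third serum array was the highest of its group and the second HBEGF P7 array the lowest, as for Gjb6 and Gjb2. The array order within the P1 groups is given below for Ptgds alone. Between groups the order was another: the first and second serum arrays were above every fresh P7 array in the list and below them all in Gjb6 and Gjb2. The summed intensity of the list, on the log2 scale, ranged from 17.27 to 17.65 in withdrawn, 16.59 to 17.43 in serum and 15.35 to 16.39 in HBEGF P7 cultures and from 14.77 to 15.25 in fresh P7 cells. It ranged from 14.43 to 14.53 in MD cultures, from 14.42 to 15.19 in HBEGF P1 cultures and from 14.41 to 14.99 in fresh P1 cells. The brightest genes weigh most in this sum, and single markers differed more. In these 3 groups, in this order, Igfbp2 averaged 13.57, 13.23 and 13.99. Lum averaged 4.58, 9.28 and 8.55, and Thy1 9.11, 4.97 and 6.46. RMA gives no value of 0, and 1, 1, 3 and 1 of the 20 lay under the array median in the withdrawn, serum, HBEGF and fresh P7 groups, 8 in MD cultures, 4 in HBEGF P1 cultures and 3 in fresh P1 cells.

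Ptgds was at 15.07, 15.10 and 14.92 in withdrawn P7 cultures and at 6.26, 8.96 and 14.25 in serum P7 cultures, and at 11.53, 6.83 and 13.90 in HBEGF P7 cultures. In MD cultures it lay between 5.12 and 5.83. The array order of Gjb6 was not that of Ptgds in every P1 group. In fresh P1 cells Ptgds was at 7.83, 10.71 and 9.22 and Gjb6 at 6.10, 7.19 and 6.05. In MD cultures Ptgds was at 5.83, 5.12 and 5.26 and Gjb6 at 4.17, 4.26 and 4.75. In HBEGF P1 cultures both stood in the same order. Igf2 was at 13.75, 14.03 and 14.24 in withdrawn and 9.15, 9.54 and 13.69 in serum P7 cultures. In the serum P7 group the third array was above both others for 14 of the 20 markers (70%), against 38.5% of all genes and 4 of 19 astrocyte markers. Decorin did not share this order, at 10.84, 11.76 and 11.56 in serum P7 cultures.

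Of the 20 markers, 16 rose in withdrawn P7 cultures relative to fresh P7 cells (median log2 change 2.60, all genes 0.10, 22.1% of all genes called). In serum P7 cultures 12 rose and 1 fell (median 2.20, all genes 0.07, 18.2% of all genes called). In withdrawn against serum P7 cultures 2 rose, Serping1 (3.70, limma adjusted p = 0.0043) and Slc13a3 (1.70, adjusted p = 0.00911), and 1 fell, Thy1 (log2 change −2.56, adjusted p = 3.71e-06). Relative to MD cultures 14 rose and 1 fell in serum P7 cultures (median 3.00, all genes −0.07, 13.9% of all genes called), the comparison in which Aqp4 was higher.

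Markers of other cells moved in withdrawn against serum P7 cultures as well, the comparison that holds the Gjb6 call, where 4.50% of all genes were called. Of 12 microglia and macrophage markers 6 rose (median log2 change 1.63, all genes 0.02), with the largest changes in the complement genes C1qb (4.18, limma adjusted p = 0.00512) and C1qa (4.15, adjusted p = 0.0026), the signalling adaptor Tyrobp (3.51) and the mannose receptor Mrc1 (3.15). Tmem119, a microglial membrane protein named here after its value was seen, fell (log2 change −2.55). The mean of this list was 7.71, 6.86 and 8.08 in withdrawn and 5.91, 5.79 and 6.12 in serum P7 cultures, and 6 and 11 of the 12 lay under the array median. The third serum array was thus not at the withdrawn level here, unlike for Gjb6.

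Of 11 endothelial markers 3 rose in the same comparison, Slco1a4 (3.06) and Abcb1a (2.50), both transporters, and Tek (1.67), the angiopoietin receptor. Their summed intensity, on the log2 scale, ranged from 12.19 to 12.70 in withdrawn and from 11.76 to 12.05 in serum P7 cultures. Of 8 ependymal and choroid plexus markers 1 rose, the folate receptor Folr1 (3.25), and the summed intensity ranged from 12.49 to 13.17 in withdrawn and from 10.83 to 12.50 in serum P7 cultures. Of 10 mural and 12 neuron markers 1 each fell, Des (log2 change −1.21) and Gap43 (log2 change −1.18). The part of any of these cells, or of genes they share with astrocytes, in the Gjb6 and Gjb2 values was not tested.

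**Figure D4:**
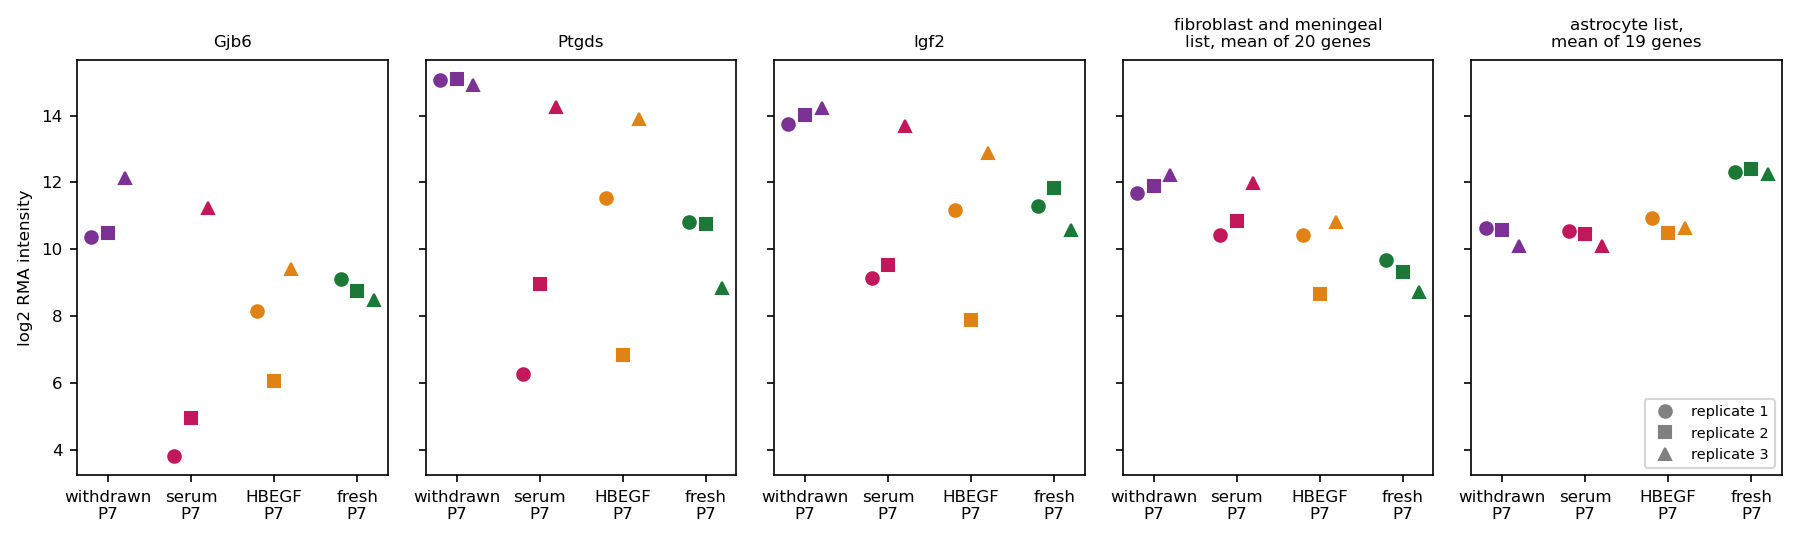
Log2 RMA intensity (vertical axis) in the 4 P7 groups (horizontal axes) of Gjb6, Ptgds and Igf2 and the mean of the fibroblast and meningeal list and of the astrocyte list; symbols give the replicate number. In the first 4 panels the third serum P7 array is the highest of its group and the second HBEGF P7 array the lowest, and the astrocyte list is highest in fresh P7 cells.

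Other astrocyte markers gave the background for Aqp4 and Gja1. Of 19 measured, 12 fell and 0 rose in MD cultures relative to fresh P1 cells (median log2 change −1.51, all genes 0.11, 19.6% of all genes called). Relative to HBEGF P1 cultures 8 fell (18.4% of all genes called), and 8 were higher in serum P7 cultures than in MD cultures (13.9%). In withdrawn, serum and HBEGF P7 cultures 11, 10 and 10 fell relative to fresh P7 cells and 0 rose. In these comparisons 22.1%, 18.2% and 10.3% of all genes were called, and neither Aqp4 nor Gja1 was. In withdrawn P7 against serum P7 cultures 2 rose and 2 fell (4.50% of all genes called).

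The other probe sets gave the Aqp4 pattern with more noise. For MD cultures against fresh P1 cells they gave log2 changes of −1.76 (limma adjusted p = 0.135) and −0.68 (adjusted p = 0.269), and against HBEGF P1 cultures −2.22 (adjusted p = 0.061) and −1.02 (adjusted p = 0.0914), the sign of the lead and no call. They had the sign of the lead in 10 and 11 of the 12 comparisons. One of them was called where the lead was not, at −1.33 in HBEGF P7 cultures relative to fresh P7 cells (adjusted p = 0.0452). The 2 dimmer Gja1 probe sets had the sign of their lead in 11 and 5 of the 12. They averaged 7.83 and 4.51 over all arrays and spanned 1.56 and 0.29 between group means.

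Other connexins and pannexins changed in few groups. Of 20 listed, 10 were measured, and at most 2 were called in any comparison. Gja5 (Cx40), a connexin of arterial endothelium, was higher in serum P7 cultures than in fresh P7 cells (7.05 ± 1.32 against 4.84 ± 0.16, log2 change 2.22, limma adjusted p = 0.000486). Gja4 (Cx37), of the same vessels, was higher in serum than in HBEGF P7 cultures (7.75 ± 1.08 against 5.86 ± 0.22, log2 change 1.89, adjusted p = 0.00087). Gjc1 (Cx45) fell in withdrawn P7 cultures relative to fresh P7 cells (9.41 ± 0.15 against 10.72 ± 0.19, log2 change −1.31, adjusted p = 1.76e-05) and in HBEGF P1 cultures relative to fresh P1 cells (log2 change −1.08, adjusted p = 0.00034). The median change of the list lay between −0.11 and 0.35 in the 12 comparisons.

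Among 11 other aquaporins, all measured, Aqp1 and Mip changed and the rest did so at most once. Aqp1, the water channel of the choroid plexus and of red cells, averaged 10.69 ± 1.81 in withdrawn and 10.70 ± 0.66 in serum P7 cultures, against 6.66 ± 0.28 in fresh P7 cells (log2 changes 4.03 and 4.04, limma adjusted p = 4.08e-05 and 4.78e-05). It was at 6.19 ± 0.31 in MD cultures, so the serum P7 cultures were higher there too (log2 change 4.51, adjusted p = 3.4e-05). Mip, the lens fibre channel, was at 8.13 ± 1.51 in serum P7 cultures and 4.64 ± 0.15 in fresh P7 cells (log2 change 3.48, adjusted p = 3.02e-05). In MD cultures Mip was at 8.07 ± 0.78, against 4.69 ± 0.20 in HBEGF P1 cultures and 4.81 ± 0.05 in fresh P1 cells (log2 changes 3.38 and 3.26, adjusted p = 4.24e-05 and 5.18e-05). In withdrawn P7 cultures it was lower than in serum P7 cultures (5.35 ± 0.24 against 8.13 ± 1.51, log2 change −2.77, adjusted p = 0.00278). Mip was thus higher in both groups lysed in serum and lower in the withdrawn P7 cultures, an order that Aqp4 did not have. Aqp11 was the remaining call, 1.12 higher in MD cultures than in fresh P1 cells (adjusted p = 0.000652).

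**Figure D5:**
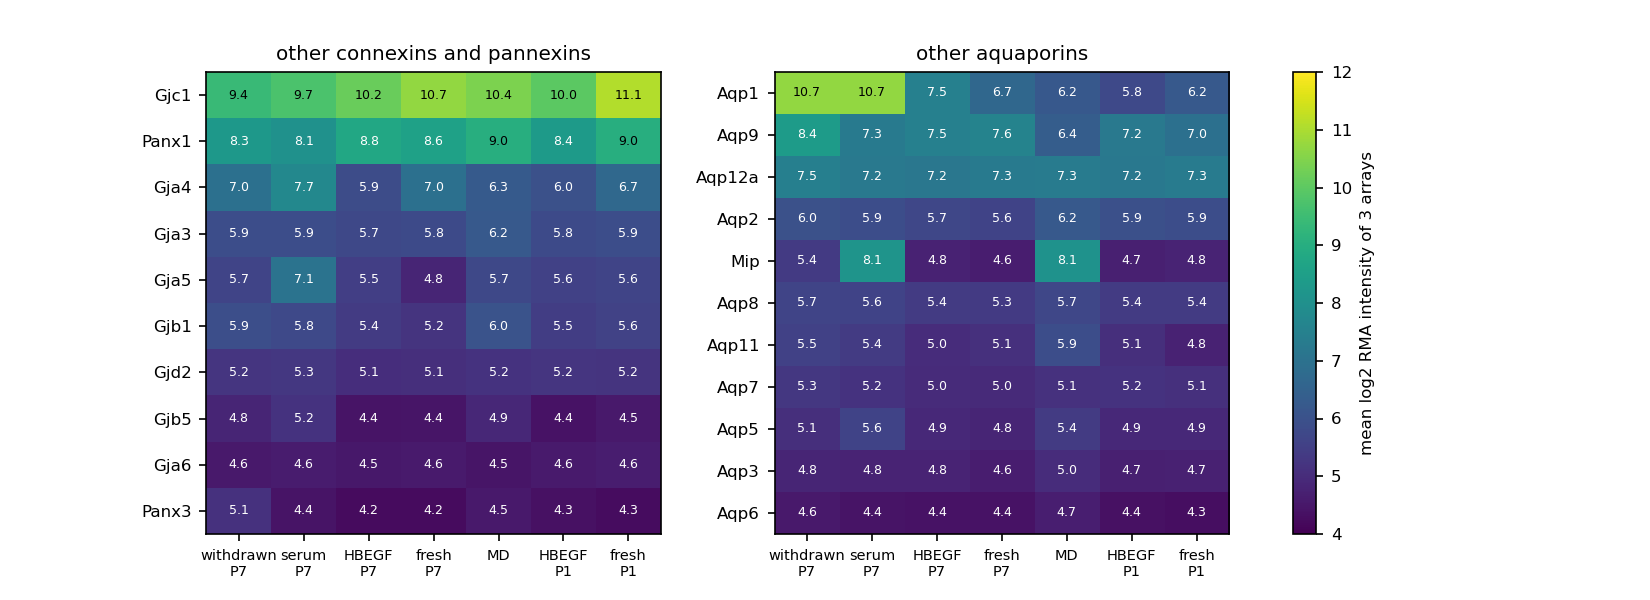
Mean log2 RMA intensity of 3 arrays (colour and printed value) for the other measured connexins and pannexins and the other aquaporins (rows) in 7 groups (columns). Aqp1 stands out in the withdrawn and serum P7 cultures at 10.7, and Mip in the serum P7 and MD cultures at 8.1; levels of different rows are not comparable, since each has its own probes.

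Genes that anchor aquaporin-4 at endfeet, 14 measured genes of the dystrophin complex and its matrix ligands, had their lowest summed intensity in MD cultures and their highest in fresh P7 cells, the lowest and highest groups of Aqp4. On the log2 scale the sum, in which the brightest genes weigh most, was 13.57 to 13.70 in MD cultures, 14.82 to 14.98 in fresh P7 cells and 14.21 to 14.75 in the other groups. Of the 14, 4 rose and 2 fell in withdrawn P7 cultures relative to fresh P7 cells (22.1% of all genes called), 5 rose and 2 fell in serum P7 cultures (18.2%) and 1 rose and 1 fell in HBEGF P7 cultures (10.3%). Agrn, which encodes agrin, a matrix ligand of dystroglycan, fell in all 5 cultures relative to the fresh cells of their age, with log2 changes of −2.92, −2.94 and −2.30 in withdrawn, serum and HBEGF P7 cultures and −3.71 and −1.63 in MD and HBEGF P1 cultures (limma adjusted p at most 4.32e-07). Dtna, which encodes alpha-dystrobrevin, fell in MD cultures relative to HBEGF P1 cultures (log2 change −2.35, adjusted p = 0.00017) and fresh P1 cells (log2 change −1.53, adjusted p = 0.00557), as Aqp4 did. It also fell in withdrawn and serum P7 cultures relative to fresh P7 cells (log2 changes −1.23 and −1.14), where Aqp4 was not called. In the MD against HBEGF P1 comparison 2 of the 14 rose and 3 fell (median −0.24, all genes 0.09, 18.4% of all genes called).

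Of 12 measured membrane partners of the endfoot, Gpr37l1, an astrocyte receptor, fell in MD cultures relative to HBEGF P1 cultures (log2 change −3.33, limma adjusted p = 1.02e-06) and fresh P1 cells (log2 change −2.23, adjusted p = 5.63e-05). It was higher in serum P7 than in MD cultures by 3.16 (adjusted p = 4.5e-06), so all 3 calls of Aqp4 against MD cultures had their like in Gpr37l1. Atp1b2, a sodium pump subunit, gave −1.62, −1.18 and 1.35 in the same comparisons, all called. Cd44, the hyaluronan receptor, went the other way, with log2 changes of 4.54, 4.18 and −1.56, all called. In these comparisons 18.4%, 19.6% and 13.9% of all genes were called. Not every partner of the list changed. In MD, fresh P1, HBEGF P1 and serum P7 groups Mlc1 averaged 13.03, 13.24, 13.70 and 13.50. Hepacam averaged 10.35, 10.37, 11.08 and 11.18 there, and the changes of both genes against MD cultures stayed under the limit.

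Of 17 measured genes whose proteins bind, traffic or phosphorylate connexins, 6 rose and 3 fell in withdrawn P7 cultures relative to fresh P7 cells (22.1% of all genes called), 5 rose and 1 fell in serum P7 cultures (18.2%) and 4 rose in HBEGF P7 cultures (10.3%). In MD cultures 4 rose and 1 fell relative to fresh P1 cells (19.6%). Whether these counts in a list of 17 differ from the background was not tested. Cav1, which encodes the membrane scaffold caveolin, rose in all 5, with log2 changes of 3.33, 3.62 and 2.26 in withdrawn, serum and HBEGF P7 cultures and 4.56 and 1.71 in MD and HBEGF P1 cultures (limma adjusted p at most 0.000657). Prkca, a kinase that phosphorylates Cx43, rose in all 5 too, by 1.23 to 2.75. Ccn3, whose protein binds the Cx43 tail, rose in withdrawn and serum P7 cultures (log2 changes 4.86 and 4.07 relative to fresh P7 cells). Ocln, a tight junction protein, rose by 2.23 in withdrawn relative to serum P7 cultures (adjusted p = 0.0111), the comparison in which Gjb6 was called.

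The genes whose levels were most like each of the 4 were found among 2513 genes (2512 for Gjb2 and Aqp4, which belong to the pool themselves) with a mean at or above the median gene and an SD over arrays of at least 0.5. Over the 21 arrays, the 5 closest to Gja1 were Ctsf (a lysosomal protease, r = 0.93), Maf (a transcription factor), Slc41a1 (a magnesium transporter), Eya1 (a transcription cofactor) and Dab2 (an endocytic adaptor, r = 0.92). The 5 closest to Gjb6 were Gjb2 (r = 0.95), Ptgds (0.93), Igf2 (0.92), Efnb3 (an ephrin, 0.91) and Cdkn1c (a cell cycle inhibitor, 0.89). The 5 closest to Gjb2 were Cdkn1c (0.90), Cmbl (a hydrolase, 0.90), Ptgds (0.87), Efnb3 (0.86) and Igf2 (0.83), and Gjb6 was outside this pool because its mean was below the median gene. The 5 closest to Aqp4 were Sat2, Ppm1k, Aldh6a1, Rbl2 and Arhgef4 (r from 0.89 to 0.90), of which Ppm1k and Aldh6a1 encode enzymes of branched-chain amino acid breakdown. The 2 beta connexins shared 4 of their 5 closest genes, and neither shared any with Gja1 or Aqp4. This sharing largely follows from their own r of 0.95 and is no separate result. Of the shared genes, Ptgds, Igf2 and Cdkn1c were also highest of their group in the third serum P7 array.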

How the data were processed

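The data were intensities deposited by the authors for each probe set on each array, processed with RMA per the submitters' processing notes. Neither its version nor the probe set definition is given in the sources used here. Values ran on a linear scale between 10.0 and 37801, and log2 of them was used with no floor. An RNeasy mini kit and the 3' IVT Express kit were used for RNA and labelling, per the labels' protocols. Of 31042 probe sets, 20826 carried 1 gene symbol, 436 several and 9780 none, in the platform annotation with symbols updated by gene number.

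Groups came from the titles. The fit was limma 3.58.1 (R 4.3.3; lmFit, contrasts.fit, eBayes) over all probe sets, with 14 residual and 2.89 prior degrees of freedom. SE is the moderated standard error, and p was adjusted within each comparison by the Benjamini-Hochberg method. The code was tested on simulated data first. An exact two-sided permutation test of 3 against 3 arrays cannot give a p under 0.1. Genes and lists were counted through lead probe sets. Per list and comparison, up to 4 called genes of largest change could be named, and 5 genes of most like pattern per gene. Further genes, such as Eif2s3y and Xist, were looked up after values were seen. The genes and lists were chosen with earlier results of these data known.

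Same-numbered arrays deviated together (r over 0.1 over all genes in each of 3 pairs) in 5 of 12 comparisons, withdrawn against serum P7 cultures among them (r = 0.49, 0.28 and 0.52). Over all 36 pairs r ran from −0.18 to 0.59. Alternatives were quantile normalization, median centring, an offset of 32, a filter on dim probe sets, a trended robust fit, the replicate block, the compared groups alone, other probe sets and each array left out. Sequences are of RefSeq, build GRCr8. The 4 genes matched by symbol.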

Additional observations from a re-analysis of the deposited data

Results flagged for a closer look

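The difference between cultures with and without serum was not the same in panned P7 cells as in the P1 preparations. For Aqp4, serum P7 minus HBEGF P7 cultures and MD minus HBEGF P1 cultures differed by 1.69 ± 0.34 SE on the log2 scale (limma adjusted p = 0.00355). With the mean of the 3 Aqp4 probe sets they differed by 1.51 and were not called (adjusted p = 0.147). For Gja1 they differed by 0.65 ± 0.14 SE (adjusted p = 0.00485). Age and panning differ between the preparations together and cannot be told apart here. The cultures with serum had no HBEGF and those without serum had it, so serum and HBEGF cannot be told apart either. With 3 arrays in a group no single array was tested as an outlier.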

How the results depend on the processing

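Over the 4 genes, 972 alternative values were computed, and 871 kept both direction and side of the call. Of 12 comparisons and 2 differences of changes, median centring moved the median of all genes by over 0.1 in 1, MD against HBEGF P1 cultures (by 0.11, the largest shift), and the Aqp4 call held there. The offset of 32 ended the withdrawn against serum call, leaving 0 of the 4 genes called, and leaving out dim probe sets gave 2. The replicate block gave 2 there (Gjb2 at an adjusted p of 0.0431) and changed no other call. Fitting the compared groups alone gave 0 there, 1 in fresh P7 against fresh P1 and in withdrawn against HBEGF P7, and 2 in MD against fresh P1, MD against HBEGF P1 and withdrawn against fresh P7. A pair of settings was chosen after seeing the data. The replicate block in the compared groups alone gave the same 0, 1 and 2 in these comparisons. Leaving out the arrays numbered 3 of the serum and withdrawn P7 cultures gave 1 in withdrawn against fresh P7 and 2 in the other 6 results with a serum or withdrawn culture. In that setting Gja1 turned to −0.065 in serum P7 against HBEGF P7, and in serum P7 against MD cultures Gjb6 turned to −0.022 and Gjb2 to −1.36 (called). The Gjb6 difference of serum changes turned to −0.52. The mean of all probe sets left 0 called in MD against fresh P1, in serum P7 against MD and in the difference of serum changes. It turned Aqp4 to −0.040 in serum P7 against HBEGF P7, 0.011 in withdrawn against serum P7 and −0.029 in withdrawn against HBEGF P7. It turned Gja1 to 0.074 in serum P7 against fresh P7, where quantile normalization gave 0.015 and median centring 0.047, and to −0.19 in HBEGF P7 against HBEGF P1. Other Aqp4 probe sets gave −0.75 in serum P7 against HBEGF P7, −1.19 in withdrawn against HBEGF P7 and 0.57 in withdrawn against serum P7. Other Gja1 probe sets gave −0.48 and −0.13 in HBEGF P7 against HBEGF P1, −0.090 in fresh P7 against fresh P1, 0.0037 in HBEGF P7 against fresh P7, 0.046 in MD against fresh P1, 0.29 in serum P7 against fresh P7, 0.0042 in MD against HBEGF P1 and −0.071 in withdrawn against serum P7.

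With 1 array left out, the number of the 4 genes called ran from 0 to 1 in MD against fresh P1, from 0 to 2 in serum P7 against fresh P7, serum P7 against HBEGF P7 and withdrawn against serum P7, and from 1 to 2 in serum P7 against MD and in the difference of serum changes. Small or noisy changes crossed 0. Gjb2 ran from −0.15 to 0.17 in HBEGF P1 against fresh P1, from −0.29 to 0.66 in HBEGF P7 against fresh P7, from −3.11 to 0.19 in serum P7 against fresh P7, from −3.26 to 0.048 in serum P7 against HBEGF P7 and from −1.36 to 1.95 in serum P7 against MD. Its difference of HBEGF changes ran from −0.24 to 0.70 and of serum changes from −2.33 to 0.98. Gjb6 ran from −1.67 to 0.0059 in HBEGF P7 against fresh P7, from −0.27 to 1.41 in HBEGF P7 against HBEGF P1, from −3.50 to 0.21 in serum P7 against HBEGF P7 and from −0.022 to 3.69 in serum P7 against MD, and its difference of serum changes from −0.52 to 3.19. Gja1 ran from −0.077 to 0.0094 in HBEGF P7 against fresh P7, from −0.11 to 0.065 in serum P7 against fresh P7, from −0.0031 to 0.10 in HBEGF P7 against HBEGF P1 and from −0.065 to 0.11 in serum P7 against HBEGF P7. Aqp4 ran from −0.47 to 0.18 in HBEGF P7 against HBEGF P1, from −0.13 to 0.51 in serum P7 against HBEGF P7, from −0.18 to 0.052 in withdrawn against serum P7 and from −0.22 to 0.42 in withdrawn against HBEGF P7. The cause was not tested.

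Genes called over the whole table moved by over 1.5 times in 6 results. In HBEGF P7 against HBEGF P1 they numbered 158, against 0 in the compared groups alone and 75 to 291 with 1 array left out. In fresh P7 against fresh P1 they numbered 221, against 136 without the second fresh P1 array. In serum P7 against HBEGF P7 the compared groups alone gave 762 of 1322, and 546 with the replicate block as well. In withdrawn against HBEGF P7 these were 895 and 490 of 1664. In withdrawn against serum P7 there were 640, and 337 to 954 with 1 array left out. The difference of HBEGF changes had 116, 58 in the compared groups alone and 50 to 343 with 1 array left out.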
